A study of Mus musculus with 112 samples.

Results

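Epididymal white adipose tissue (WAT) of C57BL/6J mice was compared between calorie restriction (CR) and a control diet, using the 16 arrays that carry this strain's label among the 112 of the series. These 16 arrays held 8 CR and 8 control mice, with 1 mouse on each array. The series covers 7 mouse strains and asks which genes CR changes in more than 1 of them. All mice were males bought at 6 weeks of age, housed singly, fed an AIN93M-based diet, and given either the control diet or CR from 8 to 22 weeks of age. C57BL/6J is an inbred strain with no added transgene, and its CR mice, like those of 129S1/SvImJ, had their food cut again partway through, which was not done in the other strains. Mice were fasted overnight before the fat was frozen, and each array measured RNA of the whole fat pad, so that fewer cells of a type and less RNA per cell cannot be told apart.

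White fat stores triacylglycerol and releases it as fatty acids between meals. It can also build fatty acids from glucose: citrate leaves the mitochondria, is split to acetyl-CoA, and is lengthened by fatty acid synthase and elongases with NADPH as the reductant. Adipocytes share the tissue with macrophages, endothelium, fibroblasts and other cells, and the epididymal pad lies against the epididymis, whose tissue can be taken along at dissection.

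All values are log2 signals, in which a difference of 1 is a doubling. The median signal of the 16 arrays ran from 6.73 to 6.86, and correlations between arrays from 0.904 to 0.995. The adipocyte genes Adipoq and Fabp4 had medians of 12.93 and 12.97 in the control mice and 12.76 and 13.00 in the CR mice. CR replicate 2 stood apart from the other 15 arrays on the first principal component, which held 44.7% of the variance, while the second, with 18.2%, placed the other 7 CR mice below all controls. The mean signal of 23 epididymis genes was 5.02 to 5.34 in the controls. It was 11.46 in CR replicate 2, 7.38 in CR replicate 3, 4.88 in CR replicate 1 and 5.69 to 5.85 in the other 5 CR mice. The mean of 10 adipocyte genes was 11.47 in CR replicate 2 and 12.51 to 12.64 in the other CR mice. The tests of genes and the list counts that rest on them were therefore also computed without CR replicates 2 and 3.

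**Figure D1:**
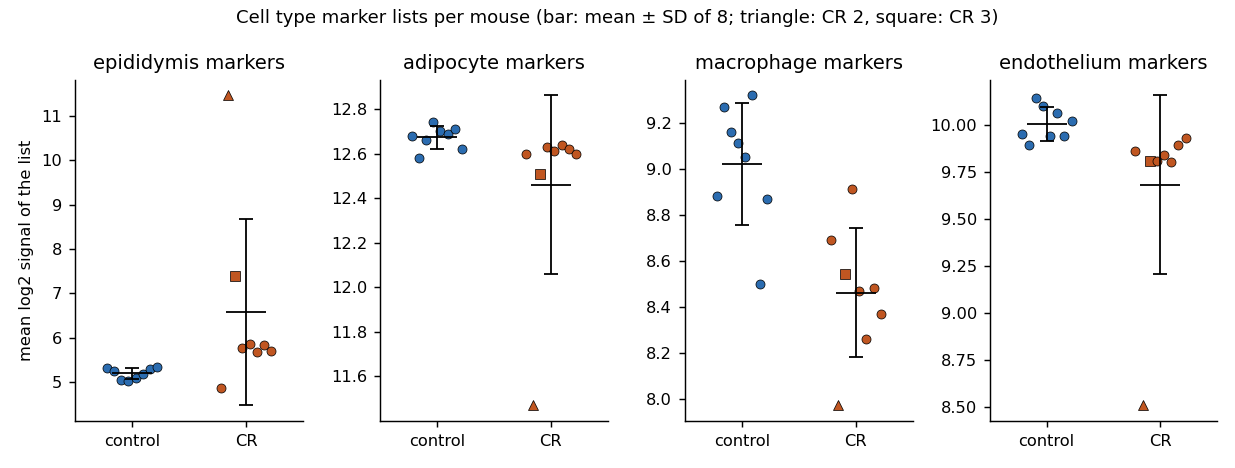
Mean log2 signal of the epididymis, adipocyte, macrophage and endothelium gene lists (vertical axes) in each of the 8 control and 8 CR C57BL/6J mice, with the mean and SD of each diet. CR replicate 2 (triangle) has 11.46 for the epididymis genes, where the controls have 5.02 to 5.34, and lies lowest for the other 3 lists.

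CR changed the expression of 3333 of 19938 genes, or 16.7%, where a change means a Benjamini-Hochberg adjusted p under 0.05 from limma. Of these, 1873 (9.39% of all genes) were higher and 1460 (7.32%) lower on CR, and the median effect over all genes was -0.033. A change of more than 1 on the log2 scale was seen for 51 genes that rose and 50 that fell. The 8 CR and the 8 control values did not overlap for 896 genes (4.49%), 522 of them higher (2.62%) and 374 lower (1.88%) on CR, and 863 of these genes also passed the test. Without CR replicates 2 and 3 the count was 4555 genes (22.8%), with 2639 higher (13.2%) and 1916 lower (9.61%). Of the 3333 genes, 3126 also passed without these mice, each with the same sign.

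Genes of fatty acid synthesis held the 3 largest increases among the genes whose diets did not overlap. Of 20 genes listed for fatty acid synthesis and NADPH supply 18 were measured, 13 rose, none fell, and the median effect was 1.16. Elovl6, which lengthens palmitate to stearate, had a signal of 8.26 to 9.41 in the control mice, with a median of 8.74, and of 11.78 to 12.53 on CR, with a median of 12.04. This is a rise of 3.39 (SE 0.15, adjusted p = 8.7e-10), or 10.5-fold, and the lowest CR mouse lay well above the highest control. Acly, which splits citrate to acetyl-CoA, went from 9.13 to 9.91 in controls (median 9.20) to 11.35 to 12.48 on CR (median 11.92). It rose by 2.57 (SE 0.17, adjusted p = 5.3e-08), without overlap between the diets.

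The desaturase gene Scd2 had signals of 8.80 to 10.44 in controls (median 9.65) and of 11.31 to 12.62 on CR (median 12.02), and rose by 2.27 (SE 0.23, adjusted p = 8.7e-06). Its more abundant relative Scd1 lay near the top of the signal range on both diets, at 13.56 to 13.71 in controls and 13.51 to 13.74 on CR, and did not pass the test (adjusted p = 0.59). Acss2, which activates acetate, rose by 1.96, and Fasn, fatty acid synthase itself, by 1.25. Acaca, which makes malonyl-CoA, rose by 1.50 with overlapping values, since CR replicate 2 with 11.23 lay under the highest control with 11.38. Of the NADPH sources, malic enzyme (Me1) rose by 1.45 and the pentose phosphate enzymes Tkt and Pgd by 1.40 and 0.65. The mitochondrial citrate carrier gene Slc25a1 rose by 1.07.

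Transcriptional regulators of this pathway were among the genes that rose. Mlxipl, which encodes the carbohydrate response factor ChREBP, rose by 0.93, from 8.61 to 8.97 in controls to 9.08 to 10.12 on CR, without overlap. Thrsp, a gene induced by carbohydrate feeding, rose by 1.39, and Srebf1, a sterol-regulated activator of lipogenic genes, by 0.59 (adjusted p = 0.016). Elovl5, Elovl3, Taldo1 and Acacb did not pass, with effects of -0.10, 0.27, 0.34 and 0.34.

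**Figure D2:**
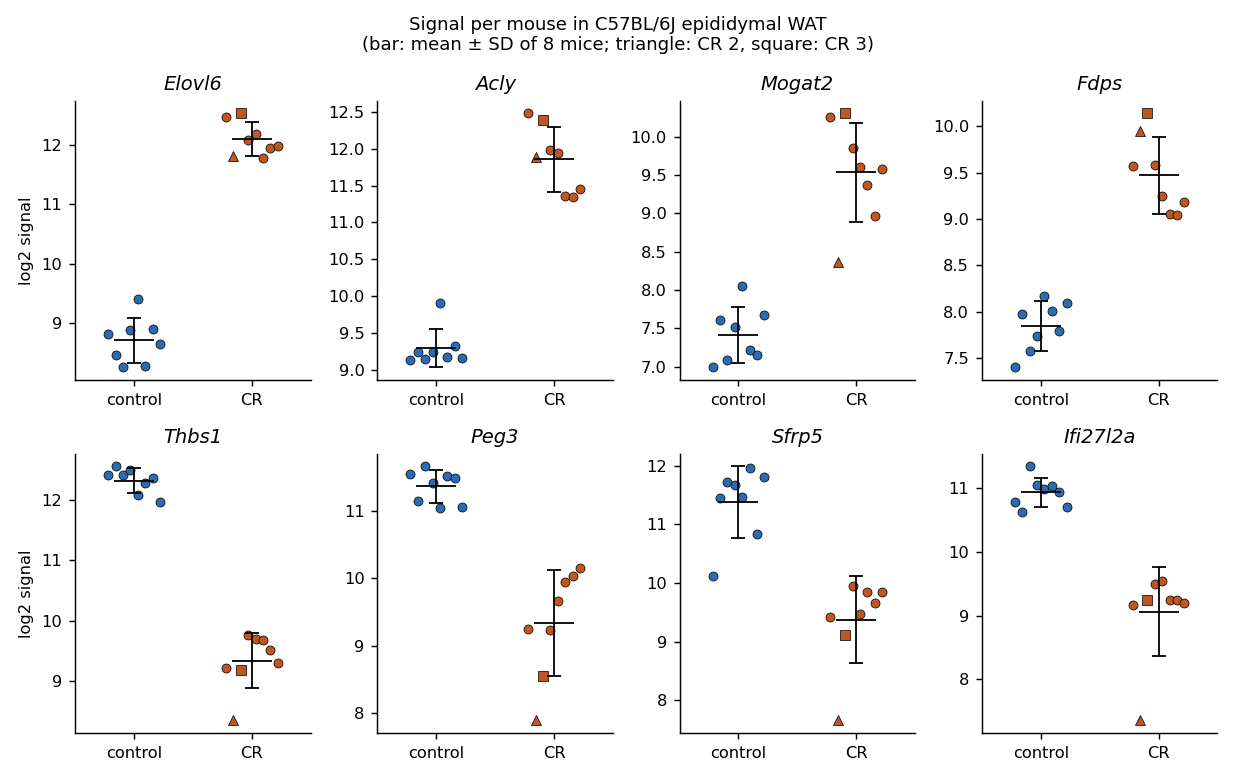
Log2 signal (vertical axes) of 8 genes in each control and CR C57BL/6J mouse, with the mean and SD of 8 mice; the axes do not start at 0. Elovl6, Acly, Mogat2 and Fdps are higher and Thbs1, Peg3, Sfrp5 and Ifi27l2a lower in all 8 CR mice than in any control.

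Genes that attach fatty acids to glycerol moved less, and the lipid droplet genes moved in both directions. Of 16 genes of triacylglycerol synthesis 6 rose and 1 fell, with a median of 0.17. Mogat2, a monoacylglycerol acyltransferase, had signals of 6.99 to 8.05 in controls (median 7.37) and 8.37 to 10.30 on CR (median 9.58). It rose by 2.12 (SE 0.24, adjusted p = 2.0e-05). The glycerol phosphate dehydrogenases Gpd2 and Gpd1 rose by 1.24 and 0.84, Agpat2 by 0.71 and Dgat2 by 0.46, while Pck1, which makes the glycerol backbone from pyruvate, fell by 0.68. Without CR replicates 2 and 3, 10 genes of this list rose and 2 fell.

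Among 17 lipolysis and lipid droplet genes 2 rose and 4 fell, with a median of -0.23. Hilpda, an inhibitor of fat breakdown, fell by 1.01, the droplet coat gene Plin4 by 0.72, G0s2, another inhibitor of the triacylglycerol lipase, by 0.53 and Plin5 by 0.34. All 4 had CR values below every control value. Pnpla3 and Cidea rose by 1.14 and 1.18. The lipase genes themselves, Pnpla2 and Lipe, had effects of -0.25 and -0.11 and did not pass with all mice. When CR replicates 2 and 3 were left out, 3 genes of this list rose and 6 fell, with a median of -0.07. The list mean was 9.62 in CR replicate 2 and 10.64 to 10.78 in controls. It was 10.71 to 10.79 in the CR mice other than replicates 2 and 3.

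Glucose enters adipocytes through Slc2a4 and fructose through Slc2a5, and both transporter genes rose. Slc2a5 had signals of 5.93 to 6.74 in controls (median 6.16) and 7.53 to 8.80 on CR (median 8.00), a rise of 1.83 (SE 0.17, adjusted p = 3.8e-06). Slc2a4 rose by 0.75. In the list of glucose uptake and glycolysis 12 of 20 genes rose and 1 fell, with a median of 0.50. Pyruvate kinase (Pkm) rose by 0.82, phosphofructokinase genes Pfkl and Pfkm by 0.64 and 0.45, and hexokinase 2 (Hk2) by 0.55, each without overlap. The gene that fell was Pfkfb3, whose product makes an activator of phosphofructokinase. It dropped by 1.14 (SE 0.19, adjusted p = 0.00064), from 11.24 to 11.92 in controls to 9.21 to 10.87 on CR.

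Pyruvate dehydrogenase joins glycolysis to the citric acid cycle and is switched off by its kinases. Its subunit genes Pdhb and Pdha1 rose by 0.96 and 0.92, and 18 of the 30 genes in the list of pyruvate oxidation and the citric acid cycle rose. The kinase genes split: Pdk4 fell by 0.78 and Pdk2 by 0.25, while Pdk1 rose by 0.73, from 8.02 to 8.46 in controls to 8.67 to 9.31 on CR. The phosphatase gene Pdp1 was the other gene of the list that fell. Gys2, a glycogen synthase gene outside these lists, rose by 1.72 from a control range of 6.65 to 8.17 to a CR range of 8.20 to 9.92.

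Many nuclear genes of the mitochondrial machinery were higher by small amounts, and the others did not pass the test. Of 34 complex I genes 21 rose and none fell (median 0.31), of 33 genes of complexes III and IV and ATP synthase 20 rose and none fell (median 0.29), and of 50 genes of the mitochondrial ribosome 27 rose and none fell (median 0.27). Without CR replicates 2 and 3 these counts were 31, 26 and 36. Ndufs1, the largest complex I subunit, rose by 0.64, Ndufs4 by 0.63, cytochrome c1 (Cyc1) by 0.56 and Mrpl48 by 0.65. The range of Mrpl48 was 8.59 to 8.93 in controls and 9.28 to 9.53 on CR, which do not overlap. Ppargc1a, a coactivator of mitochondrial genes, rose by 0.63 (SE 0.089, adjusted p = 0.00016), from 6.87 to 7.51 in controls to 7.52 to 7.94 on CR.

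The mitochondrial ribosome list contrasted with the cytosolic one, in which none of 25 genes passed the test and the median was 0.06. Proteasome genes, by comparison, rose in 28 of 31 cases with none lower and a median of 0.38. Psmd6 (0.72) and Psmd14 (0.64), subunits of the regulatory cap, had the largest effects of that list. In 13 of the 31 proteasome genes all CR mice lay above all controls, against 2.62% of all genes.

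The counts for fatty acid beta-oxidation and branched-chain amino acid breakdown changed when CR replicates 2 and 3 were left out together. The means of these lists were 9.61 and 9.21 in CR replicate 2 and 10.41 and 10.01 in CR replicate 3. In the remaining CR mice they were 10.38 to 10.50 and 10.04 to 10.14. With all mice 5 of 19 beta-oxidation genes rose and 1 fell (median 0.14), and without CR replicates 2 and 3, 13 rose and 1 fell. For amino acid breakdown 3 of 20 genes rose (median 0.24), and without the same mice 17 rose and none fell. The 3 of 20, or 15.0%, lie near the 16.7% of all genes that passed with all mice. Leaving out CR replicates 2 and 3 made the share of all genes 22.8%. Bcat2, the first enzyme of branched-chain amino acid breakdown, rose by 0.75 with all mice and by 0.97 without CR replicates 2 and 3. Cpt1a, which admits fatty acids to the mitochondria, fell by 0.35.

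Cholesterol synthesis shares acetyl-CoA with fatty acid synthesis, and 15 of its 20 genes rose, against 9.39% of all genes, with a median of 0.72. In 11 of them the diets did not overlap, against 2.62% of all genes that were higher without overlap. Without CR replicates 2 and 3, 15 genes of this list rose and 2 fell, with a median of 0.56. Fdps, which makes farnesyl diphosphate, had signals of 7.40 to 8.17 in controls (median 7.89) and 9.04 to 10.14 on CR (median 9.41). It rose by 1.63 (SE 0.16, adjusted p = 5.6e-06). Nsdhl rose by 1.51, the lanosterol synthase gene Lss by 1.48, Cyp51 by 1.26, Idi1 by 1.21, the squalene epoxidase gene Sqle by 1.00 and the squalene synthase gene Fdft1 by 0.99. The increase of Sqle was 0.63 without CR replicates 2 and 3.

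The entry step of the pathway went the other way. Hmgcs1, which makes HMG-CoA, had signals of 9.99 to 10.46 in controls (median 10.22) and 9.32 to 9.65 on CR (median 9.53). It fell by 0.73 (SE 0.069, adjusted p = 3.7e-06), without overlap. Insig1, which holds the sterol sensor in the endoplasmic reticulum, rose by 1.40, from 9.25 to 10.42 in controls to 10.82 to 12.01 on CR. Srebf2, the main activator of cholesterol genes, and Stard4, which carries cholesterol, did not pass, with effects of 0.07 and -0.17.

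**Figure D3:**
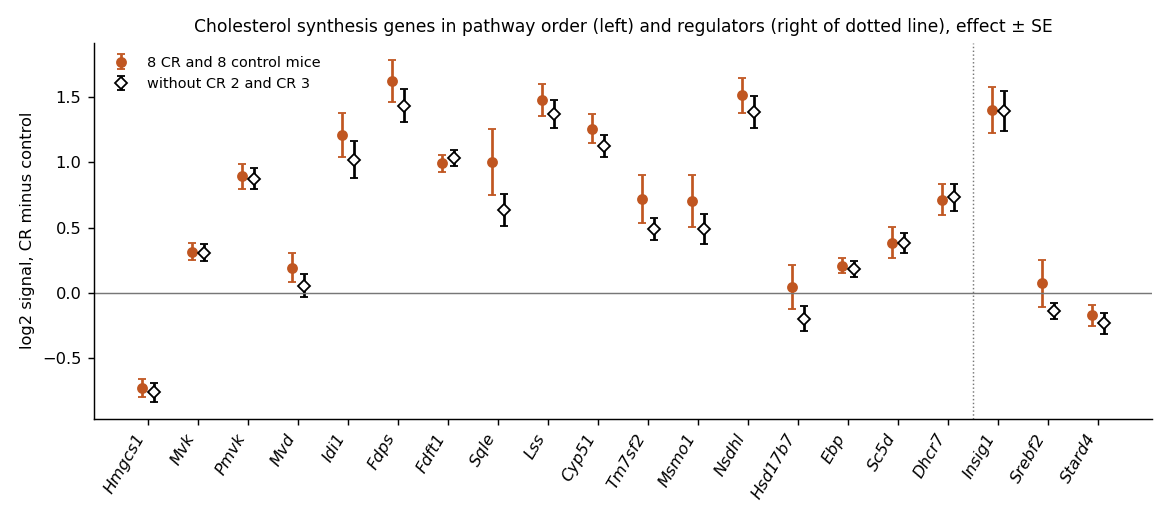
CR effect (log2 signal, CR minus control, with SE) of the 20 cholesterol genes, from the entry of the pathway on the left to its end, with regulators and a carrier right of the dotted line. Filled circles use all 16 mice and open diamonds leave out CR replicates 2 and 3; Hmgcs1 lies at -0.73 while Fdps, Lss, Nsdhl and Insig1 lie at 1.40 to 1.63.

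Promoters of these genes, taken from RefSeq on GRCm38.p6 as 250 bases before to 50 after each start site, were searched on both strands for a sterol response element (TCACNCCAC) and an E-box (CACGTG). The E-box is bound by clock proteins and the sterol response element by the Srebf factors. The sterol letters stand in 1.24% of all 32851 windows and, among 19 windows of 16 cholesterol genes, in that of Hmgcs1 only. The E-box stands in 7.15% of all windows and in 4 of these 19, among them Insig1. The upstream stretches of both genes are shown because they regulate or open the pathway and moved in opposite directions, with the match in capitals. Hmgcs1 lies at chr13:119690189-119690247 on the plus strand and Insig1 at chr5:28071286-28071341 on the plus strand.
Hmgcs1: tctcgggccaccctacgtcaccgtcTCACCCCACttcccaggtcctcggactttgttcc
Insig1: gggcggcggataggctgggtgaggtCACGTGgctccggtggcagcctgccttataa
A match describes the letters in the window and no binding was measured.

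The circadian clock is a loop in which Arntl and Clock activate the Per and Cry genes and the Rev-erb genes, whose products act back on them. Output factors of the PAR bZIP family (Dbp, Tef and Hlf) and the repressor Ciart are driven by this loop. Of 17 clock genes 7 rose and 3 fell, with a median of 0.37. Arntl fell by 0.84, Clock by 0.37 and Nr1d1, a Rev-erb gene, by 0.82. Hlf had signals of 7.28 to 7.74 in controls (median 7.49) and 8.26 to 8.53 on CR (median 8.34). It rose by 0.88 (SE 0.064, adjusted p = 2.4e-07), and was the clock gene whose diets did not overlap.

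Ciart had signals of 5.01 to 7.10 in controls and 6.69 to 7.47 on CR, and rose by 0.90 (SE 0.25, adjusted p = 0.018). Per3 rose by 0.77, Per2 by 0.50, Tef by 0.48, Nr1d2 by 0.37 and Rora by 0.36. Dbp had an effect of 0.82 and missed the threshold (adjusted p = 0.068), with controls spread from 7.52 to 9.85. Each mouse gave 1 sample, so the time of day of each sample could not be set against these values.

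Among 20 promoter windows of 15 clock genes the E-box stood in 6, and the D-box (TTANGTAA), which PAR bZIP factors bind, stood in 1, against 2.32% of all windows. The stretches with more than 1 match are shown for the clock genes that rose, with matches in capitals. Ciart holds 3 E-boxes at chr3:95882242-95882369 on the minus strand and Per3 holds 2 D-boxes at chr4:151044791-151044895 on the minus strand.
Ciart: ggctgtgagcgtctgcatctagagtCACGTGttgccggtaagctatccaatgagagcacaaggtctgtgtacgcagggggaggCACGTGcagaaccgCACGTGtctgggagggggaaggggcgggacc
Per3: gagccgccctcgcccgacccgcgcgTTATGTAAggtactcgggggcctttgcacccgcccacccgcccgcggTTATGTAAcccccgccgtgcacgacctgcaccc
Tef also holds the E-box, and among the clock genes that did not pass, Per1, Cry1 and Bhlhe41 hold it too.

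**Figure D4:**
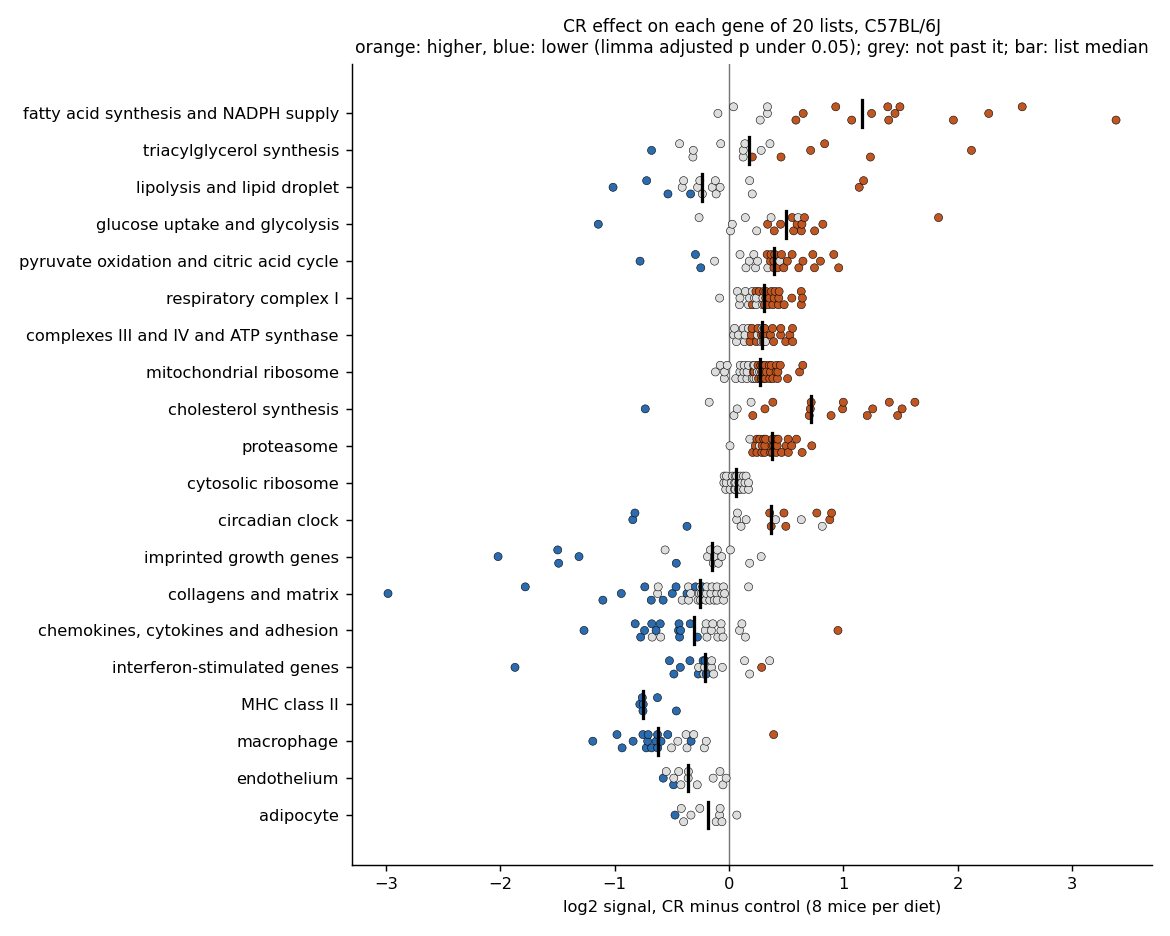
CR effect (log2 signal, CR minus control, horizontal axis) of each measured gene in 20 lists, coloured by the limma call, with a bar at the list median. Fatty acid synthesis (1.16) and cholesterol synthesis (0.72) have the highest medians shown, and MHC class II (-0.75) and macrophage genes (-0.62) the lowest.

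Thbs1 had the largest decrease among the genes whose diets did not overlap. This gene encodes thrombospondin 1, a secreted matrix protein. Its signal was 11.96 to 12.56 in controls (median 12.39) and 8.35 to 9.76 on CR (median 9.40). It fell by 2.98 (SE 0.16, adjusted p = 6.5e-09), so that controls were 7.91-fold above CR. Of 38 collagen and matrix genes 12 fell and none rose, with a median of -0.25. Mmp12, the macrophage elastase gene, fell by 1.78, Thbs2 by 1.10 and the collagen cross-linking gene Lox by 0.94, while Col1a1 (-0.24) did not pass.

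Imprinted genes, which are read from 1 parental copy, and secreted Wnt inhibitors were also among the large decreases. Peg3 had signals of 11.05 to 11.66 in controls (median 11.45) and 7.90 to 10.15 on CR (median 9.46), and fell by 2.02 (SE 0.26, adjusted p = 8.2e-05). The decrease of Peg3 was 1.65 without CR replicates 2 and 3, and all CR mice lay below all controls. Peg10 fell by 1.50, Zim1, the neighbour of Peg3, by 1.49, Mest by 1.31 and Igf2 by 0.46. The other 11 of 16 imprinted genes did not pass and none rose.

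Sfrp5, an adipocyte inhibitor of Wnt signalling, had signals of 10.12 to 11.96 in controls (median 11.57) and 7.66 to 9.95 on CR (median 9.56). It fell by 2.01 (SE 0.31, adjusted p = 0.00032). Sfrp4 and Sfrp2 fell by 0.82 and 0.71, and the other 7 of 10 Wnt inhibitors did not pass.

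Macrophage genes were lower on CR. Of 23 measured, 15 fell and 1 rose, with a median of -0.62, and without CR replicates 2 and 3 the counts were 16 and 1. Mpeg1, a pore-forming protein of macrophages, had signals of 8.11 to 9.19 in controls (median 8.81) and 7.11 to 8.02 on CR (median 7.51). It fell by 1.19 (SE 0.17, adjusted p = 0.00018) and was the macrophage gene whose diets did not overlap. The protease gene Ctss fell by 0.98 and Cd68 by 0.93, whereas Mertk, a receptor for dying cells, rose by 0.39. Of 15 genes of lipid-associated macrophages 6 fell and 1 rose, the latter being the lipid carrier gene Fabp5 with 0.77. Gpnmb, a marker of such cells, fell by 1.09 (SE 0.31, adjusted p = 0.021), with signals of 8.76 to 10.62 in controls and 8.12 to 9.77 on CR. Of 10 resident macrophage genes 1 rose and none fell, a share below the 16.7% of all genes. The median was -0.32, with 8 effects negative and 2 positive. The gene that rose, Cbr2, passed in 19 of the 28 other settings tried. With CR replicates 2 and 3 left out, 1 of these 10 genes rose and 2 fell, where 22.8% of all genes passed. In the lipid-associated list 2 of 15 rose and 8 fell without these mice. No list was tested against another.

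Antigen presentation and signals that draw in immune cells moved with the macrophage list. All 6 MHC class II genes fell, with a median of -0.75, among them H2-Eb1 (-0.78), Cd74 (-0.76) and their activator Ciita (-0.46). Of 28 chemokine, cytokine and adhesion genes 13 fell and 1 rose, with a median of -0.31. Cxcl9 fell by 1.27, Cxcl12 by 0.77 and Ccl2 by 0.64, and the alarmin gene Il33 rose by 0.95 without overlap. Of 20 interferon-stimulated genes 9 fell and 1 rose. Ifi27l2a had signals of 10.63 to 11.34 in controls (median 10.97) and 7.36 to 9.54 on CR (median 9.24), and fell by 1.87. The mean signal of the macrophage list was 8.50 to 9.32 in controls and 7.97 to 8.91 on CR, and its part in these changes was not tested.

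In the lists of T cell, B cell, mast cell, neutrophil and endothelial markers 11.1% to 22.2% of genes passed with all mice, near the 16.7% of all genes. Of the T cell markers 2 of 12 fell, of the B cell markers 1 of 9, of the mast cell markers 2 of 9 and of the neutrophil markers 2 of 10, with none higher. Without CR replicates 2 and 3 no B cell marker passed and 1 neutrophil marker rose. Of 13 endothelial genes 2 fell, Cldn5 by 0.57 and Egfl7 by 0.48. Without CR replicates 2 and 3, 8 of the 13 fell, where 9.61% of all genes were lower, so that the endothelial share depended on these mice. In adipocytes Lep fell by 0.47 (SE 0.16, adjusted p = 0.049), with signals of 11.46 to 12.16 in controls and 10.32 to 11.61 on CR, and passed in 13 of the 28 other settings tried. The other 9 adipocyte genes did not pass with all mice. When CR replicates 2 and 3 were left out, 1 of the 10 adipocyte genes rose and 3 fell. Leptin is secreted in proportion to fat stores.

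Of 23 epididymis genes 4 rose and none fell, with a median of 1.24. This share of 17.4% is near the 16.7% of all genes. Gpx5, which encodes a secreted enzyme of the epididymis, had signals of 4.08 to 4.96 in controls (median 4.59) and 4.35 to 13.12 on CR (median 8.17). It rose by 3.94 (SE 0.85, adjusted p = 0.0040). Without CR replicates 2 and 3, 6 epididymis genes rose, the median of the list was 0.19 and the effect of Gpx5 was 2.73. No gene of the seminal vesicle and prostate list passed, and its median was -0.02.

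The study chose 11 WAT genes for quantitative PCR from these same arrays, so their direction here is not independent evidence. Of these, 10 were analysed here. Acaca, Acss2, Me1, Gpd2, Ndufs4, Nampt, Parm1 and Slc2a4 rose and Cd68 and Ifi27l2a fell. Nampt, which makes NAD from nicotinamide, rose by 1.01 (SE 0.12, adjusted p = 4.8e-05), from 9.11 to 9.59 in controls to 9.54 to 10.60 on CR. Parm1, a membrane protein gene, had signals of 8.10 to 8.65 in controls (median 8.21) and 9.09 to 10.44 on CR (median 9.76), and rose by 1.52.

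The remaining large effects came from genes outside the lists. Sorl1, a sorting receptor, rose by 1.61 and Unc5a, a netrin receptor, by 1.55, each with CR values above all controls. The pantetheinase gene Vnn1 fell by 1.73, the adenylyl cyclase gene Adcy5 by 1.60, the retinol-binding protein gene Rbp7 by 1.58, the calcium channel gene Cacna1e by 1.50, Enc1 by 1.48 and the secretin receptor gene Sctr by 1.45. The signals of Enc1 were 9.49 to 10.05 in controls and 8.01 to 8.58 on CR, so that the gap between the diets was wider than either range.

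The C57BL/6J effect was then set against the mean effect of the other 6 strains, in 1 limma model of all 14 groups. It differed for 1023 genes (5.13%), being more positive in C57BL/6J for 588 (2.95%) and more negative for 435 (2.18%). Quantile normalization turned this split to 464 more positive and 586 more negative. With array weights 2050 genes differed, and without control replicate 8 650 did. In 913 of the 1023 genes C57BL/6J had the larger effect in size, when set against the signed average of the other 6. Effects of opposite sign cancel in such an average, and these genes were selected for differing from it. The 913 therefore cannot show by themselves that C57BL/6J responded more strongly. For 473 of the 1023 genes the sign in C57BL/6J was opposite to that average. Of the 1023 genes, 646 also passed without CR replicates 2 and 3. Leaving these mice out gave 1052 genes in all (5.28%), 732 more positive (3.67%) and 320 more negative (1.6%). The depth of restriction differed between strains as well, so that strain and food allotment cannot be told apart here.

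Peg10 went in another direction in C57BL/6J than in most other strains. It fell by 1.50 in C57BL/6J, where the effect was -0.39 in 129S1/SvImJ and between 0.01 and 0.59 in the other 5 strains, a difference of -1.72 (SE 0.21, adjusted p = 1.9e-08). Serpina3b, a serine protease inhibitor gene, had signals of 5.83 to 7.35 in C57BL/6J controls and 5.03 to 5.67 on CR, and differed by -1.11 from the other strains. Rbp7 differed by -1.27, the guanylate-binding protein gene Gbp4 by -1.30 and the orphan receptor gene Gpr50 by -1.16. Serpina3b and Gbp4 belong to families of close copies, whose probes may not separate them. Rgs2, a regulator of G protein signalling, rose by 0.74 in C57BL/6J, where the other strains lay between -0.69 and 0.00, and differed by 1.09 (adjusted p = 0.00011).

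For Elovl6, Thbs1, Elovl3 and Slc15a5 the effect had the same sign in C57BL/6J as the mean of the other strains but another size. The Elovl6 effect of 3.39 differed by 1.32 from the other strains (SE 0.39, adjusted p = 0.026), although 129S1/SvImJ with 3.17 and B6C3F1/J with 3.47 were close to it. Thbs1 differed by -1.31, while its effect of -2.90 in 129S1/SvImJ was near that of -2.98 in C57BL/6J. Elovl3, an elongase of brown and white fat, had an effect of 0.27 in C57BL/6J, which did not pass the test there, and of 0.22 in 129S1/SvImJ, against 1.28 to 3.54 in the other 5 strains, and differed by -1.85 (adjusted p = 0.030). Slc15a5, a peptide transporter gene, had an effect of 0.27 in C57BL/6J that did not pass either, and differed by -1.09. Without CR replicates 2 and 3 the adjusted p of the difference was 0.047 for Elovl6 and 0.044 for Slc15a5, but 0.050 for Thbs1 and 0.055 for Elovl3, both over the threshold. Without B6C3F1/J, an F1 hybrid with C57BL/6J as a parent, the differences of Elovl3 (adjusted p = 0.092) and Slc15a5 (0.20) also missed it.

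The 4 largest positive differences were those of Gpx5 (3.47) and Spag11b (2.43), both of the epididymis list, and of Pate13 (2.00) and Lypd8 (1.73), which are in no list, with the adjusted p of all 4 over the threshold without CR replicates 2 and 3. Klrb1a (1.13) rested on CR replicate 2, which had 8.83 where the other CR mice had 4.24 to 5.00, and its difference was 0.59 (adjusted p = 0.24) without that mouse. Folh1, a glutamate-releasing peptidase gene, differed by 1.00. In the lipid-associated macrophage list 4 of 15 genes were more positive in C57BL/6J and 1 was more negative, with a median difference of 0.41. Over all genes these shares were 2.95% and 2.18%. In the clock list 4 of 17 genes were more positive in C57BL/6J than elsewhere, against 2.95% of all genes. These were Hlf (0.55), Per3 (0.46), Per2 (0.45) and Nr1d2 (0.30), and Arntl was more negative (-0.51). In the endothelial list 4 of 13 genes were more negative, against 2.18% of all genes, namely Cldn5 (-0.57), Kdr (-0.56), Egfl7 (-0.47) and Gpihbp1 (-0.46). CR replicate 2 had an endothelial list mean of 8.51, where the other CR mice had 9.80 to 9.93. The 4 endothelial differences are given with all mice, and their values without this mouse are not reported here.

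**Figure D5:**
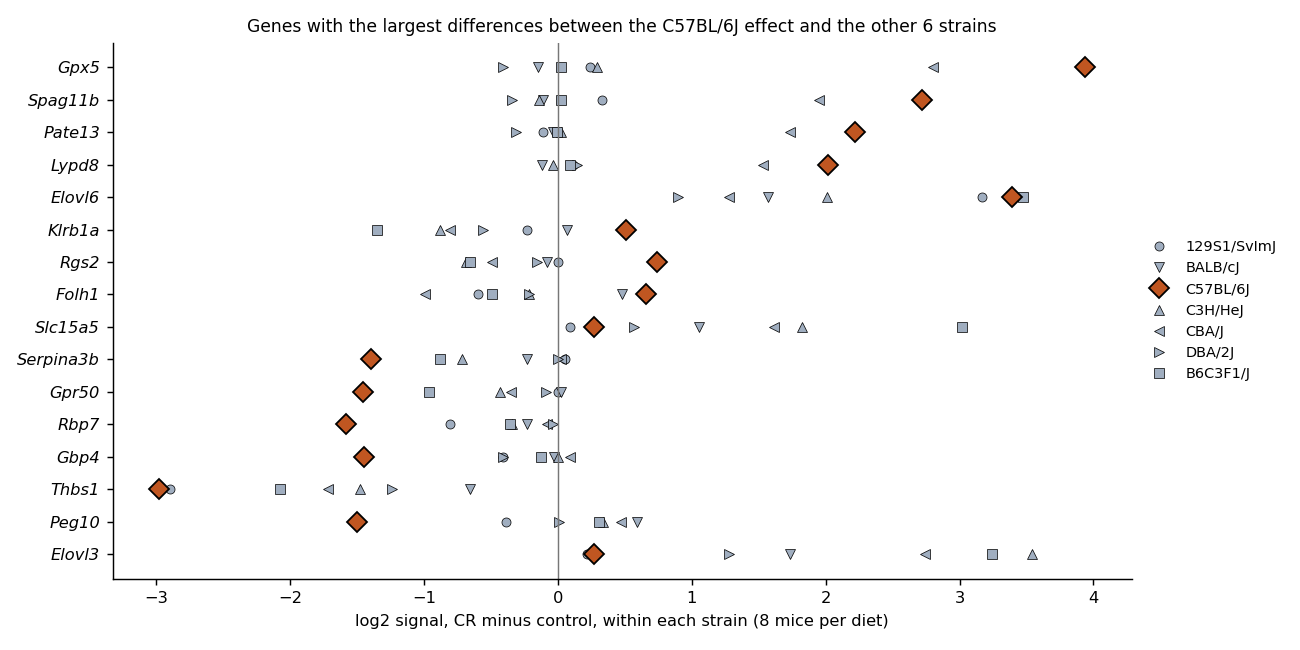
CR effect (log2 signal, CR minus control, 8 mice per diet) within each of the 7 strains for the 16 genes with the largest differences between C57BL/6J (diamonds) and the mean of the other strains. Peg10 lies at -1.50 in C57BL/6J and between -0.39 and 0.59 elsewhere, and Gpx5 is also raised in CBA/J, at 2.80.

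Leptin was also set against 3 genes within each diet group, over the 8 mice of that group, giving 6 relations in all. Within the controls Lep and Mest had r = 0.777 (exact permutation p = 0.0163, adjusted over the 6 relations 0.0979) and a Spearman rho of 0.905 (exact permutation p = 0.00456, adjusted 0.0274). Leaving out the 2 mice farthest from the Lep median gave r = 0.720. Within CR the r of Lep and Mest was 0.911 (exact permutation p = 0.0966, adjusted 0.145) but rho was 0.00, and r was -0.38 without CR replicates 2 and 3, so that this value rested on them. Lep and Gpnmb had r = 0.652 (exact permutation p = 0.094) and rho = 0.429 (p = 0.299) in controls, and r = -0.714 (p = 0.0766) and rho = -0.214 (p = 0.619) on CR. Without the 2 farthest mice these r were 0.134 and 0.0731, so that both rested on those mice. Lep and Elovl6 had r = -0.292 (exact permutation p = 0.486) and rho = -0.238 (p = 0.582) in controls, and r = 0.319 (p = 0.491) and rho = -0.0714 (p = 0.882) on CR. Without the 2 farthest mice r was -0.152 and 0.216, and the adjusted p of these 4 relations was 0.145 to 0.491 for r. All tests were two-sided.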

How the data were processed

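RNA of epididymal WAT from 1 mouse was hybridised to each Affymetrix Mouse Gene 1.0 ST array. The authors deposited log2 signals of probe sets from the RMA-Sketch algorithm (gene level) of Affymetrix Expression Console, in which background is corrected, the distributions of arrays are made alike and the probes of a set are combined. Neither its version nor the arrays that entered 1 normalization are given in the sources used here, and the files hold no scan date. Such normalization removes a shift shared by all genes. Precision is limited by how many arrays each group has.

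Of 35556 probe sets, 21789 had a single gene symbol, 1621 had several and 12146 had none. The symbols came from GEO's platform annotation. The brightest probe set over the 16 arrays stood for each of 19938 genes (999 had several probe sets). With limma 3.58.1 under R 4.3.3, a linear model was fitted to the 16 arrays, with Benjamini-Hochberg adjustment over all genes, and to all 112 arrays for the difference between strains. The fit was tested on simulated data. An unadjusted p under 0.01, the study's limit, gave 3514 genes. The methods' t-test on the raw signal scale gave 3624 at that limit and 3507 after Benjamini-Hochberg adjustment. Python 3.11.15 and scipy 1.17.1 were used for the other steps.

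Of 922 genes in 49 lists, 850 were measured. The members and lists were chosen with earlier results of these data known. A list is described by its calls and median, with no test of the list. The genes named are the 12 largest increases and decreases past the threshold without overlap, up to 5 members of each list by p, the 3 brightest of each cell type list, the qPCR genes, the 8 largest strain differences each way, and Nnt, Lep, Mest, Gpnmb and Elovl6. Further list members were named with their values known. The signal of Nnt, part of which this strain lacks, was 8.05 to 8.43 in controls and 7.88 to 8.68 on CR. Alternatives covered the test, variance model, array weights, scaling, dim genes, probe choice, replicate block and leaving out arrays.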

Additional observations from a re-analysis of the deposited data

Results flagged for a closer look

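For 46 genes (the largest changes, the qPCR genes, the strain differences, Nnt, Lep, Mest and Gpnmb) each diet group was searched for a mouse whose gap to its neighbour passed Dixon's critical value, which chance passes in about 1 group in 20. It was passed in 22 of 92 groups, and in 18 of these the mouse was CR replicate 2, the mouse with the highest epididymis signals. This mouse had the lowest CR signal of Thbs1 (8.35), Sfrp5 (7.66), Ifi27l2a (7.36), Vnn1 (6.03), Rbp7 (6.85), Peg10 (7.68), Gbp4 (7.19) and Mest (9.87), all genes that fell on CR. It also had the lowest CR signal of Me1 (11.62), Gpd2 (8.64), Ndufs4 (10.23), Nampt (9.54), Acaca (11.23) and Slc2a4 (9.37), which rose, and of Lep (10.32). Its signals of Pate13 (11.65), Klrb1a (8.83) and Folh1 (9.41) were the highest. The share of epididymal tissue in this mouse and its part in these values was not tested. The other cases were control mice: replicate 5 for Acly (9.91), replicate 1 for Mest (11.75), replicate 2 for Elovl3 (7.37) and replicate 7 for Nnt (8.43).

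The CR effect differed between C57BL/6J and the mean of the other 6 strains by limma's contrast for 1023 genes, and the 16 with the largest differences were singled out. It was more positive in C57BL/6J for Gpx5 (3.47), Spag11b (2.43), Pate13 (2.00), Lypd8 (1.73), Elovl6 (1.32), Klrb1a (1.13), Rgs2 (1.09) and Folh1 (1.00). It was more negative for Elovl3 (-1.85), Peg10 (-1.72), Thbs1 (-1.31), Gbp4 (-1.30), Rbp7 (-1.27), Gpr50 (-1.16), Serpina3b (-1.11) and Slc15a5 (-1.09).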

How the results depend on the processing

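Array weights, which give less weight to arrays that depart from their group, moved the count of changed genes to 5413, that at an unadjusted p under 0.01 to 5058 and that of strain differences to 2050. Over the other settings, single mice left out aside, these counts were 2908 to 4847, 3099 to 4648 and 821 to 1362. Leaving out 1 mouse at a time gave 2752 to 4848 changed genes, 3084 to 4672 at an unadjusted p under 0.01, and 650 to 1233 strain differences, the 650 without control replicate 8. Without CR replicate 2 the counts were 4848, 4672 and 1091. Median centring raised the share of changed genes that were higher from 56.2% to 64.5%, and quantile normalization lowered it to 51.5%. The share of strain differences that were more positive, 57.5%, was 44.2% with quantile normalization and 69.6% without CR replicates 2 and 3. No effect of the 285 named genes that passed a test changed sign under any setting. Of 181 that passed, 178 also passed without CR replicates 2 and 3 with the same sign. Lep passed in 13 of 28 settings, with adjusted p up to 0.099. The cause of these shifts was not tested. Replicate numbers carry no stated pairing. Same-numbered mice of both diets had correlations of their deviations from -0.119 to 0.429, and own numbers ranked first for 2 of 8. With the replicate number as a block 2908 genes changed, 3295 at an unadjusted p under 0.01, and 1081 differed between strains.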

Other observations

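Other lists are given here by their counts, beside which 16.7% of all genes passed the test in C57BL/6J. Of 22 heat shock and unfolded protein response genes 4 rose and 2 fell, and 3 of the 4 that rose encode mitochondrial chaperones: Hspd1 (0.68), Hspe1 (0.62) and Hspa9 (0.51), while Hspa5, the main chaperone of the endoplasmic reticulum, had an effect of 0.15 and did not pass. Of 19 antioxidant genes 5 rose and 1 fell. Gclm, a cytosolic gene of glutathione synthesis, rose by 0.66. Sod2, Prdx3, Txn2 and Txnrd2, whose products work in mitochondria, rose by 0.57, 0.42, 0.28 and 0.41, and Gpx1 fell by 0.71. Of 32 lysosome and proton pump genes 6 rose and 4 fell. All 6 that rose encode parts of the vacuolar proton pump, led by Atp6v1d (0.71) and Atp6v1g1 (0.59), and Ctss (-0.98), Lipa (-0.57), Npc1 (-0.33) and Ctsa (-0.23) fell.

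Among 27 genes of insulin and IGF signalling 5 fell and none rose, a share of 18.5% that is near that of all genes. Without CR replicates 2 and 3, 5 of these genes rose and 6 fell, where 22.8% of all genes passed. Sesn2, which is induced by stress and restrains the growth kinase mTORC1, had signals of 8.96 to 9.85 in controls and 7.84 to 8.58 on CR and fell by 1.08. Irs2 fell by 0.59 and Igf2 by 0.46. Of 15 glucocorticoid genes 3 rose and 4 fell, and without CR replicates 2 and 3, 7 rose and 4 fell. With all mice Fkbp5 rose by 0.86 and Hsd11b1, which makes active hormone inside the cell, by 0.76, while Dusp1 fell by 0.71 and Sgk1 by 0.51. The rise of Fkbp5 was 0.86 larger than the mean effect of the other strains (adjusted p = 0.036 from limma, and 0.060 without CR replicates 2 and 3). Of 14 brown and beige fat genes 4 rose, namely Cidea (1.18), Cox8b (0.99), Cox7a1 and Ppargc1a (0.63 each), and Ucp1 had an effect of 0.06 and did not pass. Of 15 sirtuin and NAD genes 2 rose and 1 fell with all mice, also near the share of all genes, and no sirtuin gene passed. Without CR replicates 2 and 3, 5 of these 15 genes rose and 1 fell. The meiosis gene Sycp3 rose by 1.22 and the muscle actin gene Acta1 fell by 1.06.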
